A study of Mus musculus with 6 samples.

Results

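The genes of the calcineurin and NFAT pathway were examined in MLO-Y4 cells, a mouse osteocyte-like cell line, after low-intensity pulsed ultrasound (LIPUS). The 10 genes were taken by name from a table of 53797 genes. They encode the NFAT transcription factors Nfatc1, Nfatc2, Nfatc3, Nfatc4 and Nfat5, the calcineurin subunits Ppp3ca, Ppp3cb and Ppp3r1, and the calcineurin regulators Rcan1 and Rcan2. The LIPUS group comprised 3 cultures stimulated for 20 min at 1.5 MHz and 30 mW/cm2, and the Control group comprised 3 unstimulated cultures of the same line. Stimulated and control wells shared a culture plate, in which the transducers under the control wells were unplugged, and RNA was collected 30 min after the stimulation ended. MLO-Y4 is a single clonal line, so the cultures do not stand for different animals. The study describes a control culture that stood apart from the others and names leakage of ultrasound within the plate as possible. The deposited values are pooled over the cultures of a group, so results without that culture were not computed here.

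Calcineurin is a phosphatase that is switched on by calcium and calmodulin. It consists of a catalytic subunit and a calcium-binding regulatory subunit, and it removes phosphates from NFATc factors in the cytoplasm, after which they enter the nucleus. Kinases return them to the cytoplasm. Nfat5 lacks the calcineurin-dependent control of the other members and responds to osmotic stress. Rcan proteins bind calcineurin and restrain it, and Rcan1 is a well-known transcriptional target of the pathway itself. In bone, NFATc1 is best known as the master regulator of osteoclast differentiation. Fluid flow and other mechanical loads are known to raise calcium in osteocytes.

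Rcan1 was the member with the largest difference, so the sequences before its annotated starts are shown first. Rcan1 lies on the minus strand of chromosome 16 of GRCm38, from 92391953 to 92470867. GENCODE M21 lists protein-coding transcripts of Rcan1 that begin at 92470867, 92466146, 92466143, 92458475 and, within the gene, at 92400077. In other cell types the transcript from the internal start is the one known to be induced by calcineurin and NFAT, whereas the upstream start is not. The RefSeq promoter table for GRCm38.p6 holds a window for an upstream and an internal start of Rcan1. Rcan2, a close relative of Rcan1 with a small difference, is shown beside it. Each line gives the 250 bases before the start, read 5′ to 3′ on the strand of the gene. Capitals mark matches to the NFAT core GGAAA on either strand (TTTCC when read on the other), to the AP-1 site TGANTCA and to the full cyclic AMP response element TGACGTCA. These motifs were chosen after the windows had been seen.
Rcan1, upstream start, chr16:92466170-92466419, minus strand: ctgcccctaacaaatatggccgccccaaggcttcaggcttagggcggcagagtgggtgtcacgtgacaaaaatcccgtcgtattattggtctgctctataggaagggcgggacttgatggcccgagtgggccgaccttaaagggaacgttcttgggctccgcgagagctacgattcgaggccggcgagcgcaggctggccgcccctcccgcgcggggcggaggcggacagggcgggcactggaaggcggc
Rcan1, internal start, chr16:92400079-92400328, minus strand: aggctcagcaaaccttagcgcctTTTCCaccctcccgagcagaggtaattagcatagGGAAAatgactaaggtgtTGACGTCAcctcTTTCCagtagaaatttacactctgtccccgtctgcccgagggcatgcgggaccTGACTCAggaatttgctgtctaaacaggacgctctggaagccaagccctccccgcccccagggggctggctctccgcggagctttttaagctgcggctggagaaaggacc
Rcan2, first start, chr17:43801102-43801351, plus strand: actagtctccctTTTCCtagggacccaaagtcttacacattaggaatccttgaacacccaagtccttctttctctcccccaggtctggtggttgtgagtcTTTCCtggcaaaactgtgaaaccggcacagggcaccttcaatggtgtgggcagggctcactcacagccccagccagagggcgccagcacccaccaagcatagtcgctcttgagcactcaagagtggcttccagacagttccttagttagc

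The window before the internal start of Rcan1 overlapped no annotated exon. It held 3 matches to the NFAT core, 1 AP-1 site and 1 full cyclic AMP response element, and none of the matches overlapped each other. The upstream window of Rcan1 held none of these motifs. Of the 32851 windows of the promoter table, 55.6% held at least 1 NFAT core, 6.39% held 3 or more, 6.75% held an AP-1 site and 1.55% held the full element. Because the motifs were picked with the Rcan1 windows in view, these shares are background and support nothing about Rcan1. The promoter table matched 8 of the 10 genes with 13 windows. Nfatc1 and Ppp3ca were not matched. Of the 13 windows, 8 held an NFAT core and 2 an AP-1 site, the second being the third window of Rcan2. The full element occurred in the internal window of Rcan1 and in no other window of these genes. The first window of Nfatc2 and the windows of Nfatc4 and Ppp3cb also had 3 matches to the NFAT core each, and Ppp3r1 had none. A match describes the letters of a window and is not a measured binding site. The table gives a single value per gene, so the start from which the additional Rcan1 RNA came was not measured.

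**Figure D1:**
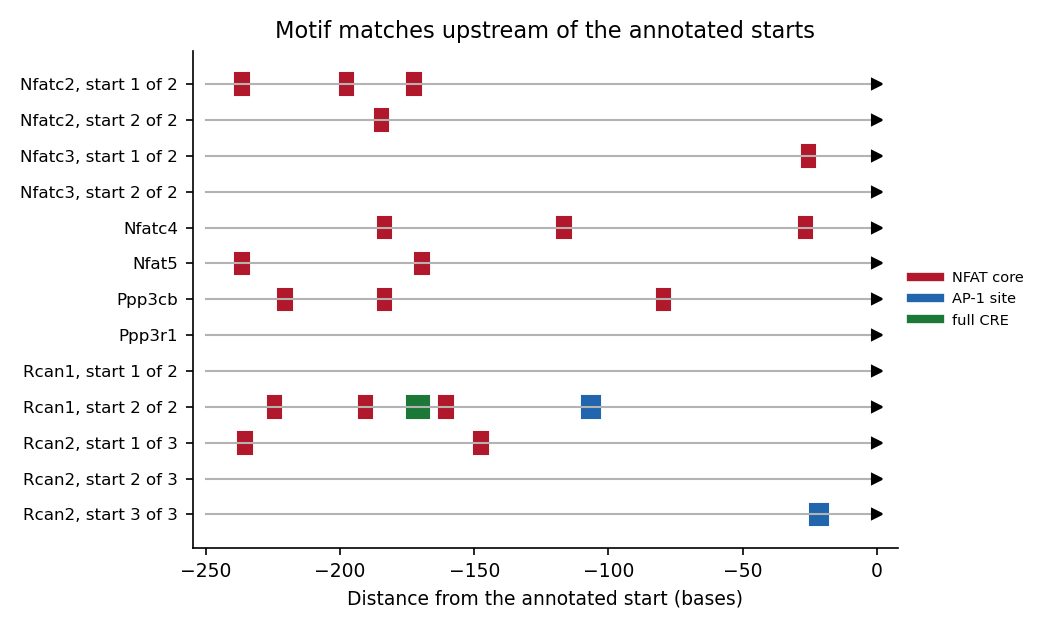
Positions of the motif matches in the 13 windows of the promoter table, in bases before each annotated start (triangle at 0); red blocks are matches to the NFAT core, blue to the AP-1 site and green to the full cyclic AMP response element, starts numbered in the order of the promoter table. The second start of Rcan1, the internal one, carries all 3 kinds of match, and its first start carries none.

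The values are FPKM, the number of fragments per kilobase of exon scaled to the mapped reads of a library, with a single value per group pooled by the authors over its 3 libraries. No SD between cultures could be computed for any gene, and no test was run. A difference of at least 1.5-fold was used as the size at which a gene is counted as higher or lower. The status column of the table marks as OK the genes that the authors' program compared. This status was given to 8145 genes, 2 of which were listed at 0 in 1 group and received no ratio. Among the remaining 8143 genes, 4.7% were higher with LIPUS by at least 1.5-fold and 4.69% were lower. The log2 ratios of LIPUS over Control lay between -0.75 and 0.77 for the central 95% of these genes. Among the 951 genes with a mean FPKM of 100 or more, this range was -0.44 to 0.61. The depth of each library cannot be read from such values.

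Of the 10 genes, 8 had the status OK. Rcan1 was higher by at least 1.5-fold, Nfatc1 was lower by at least 1.5-fold, and the other 6 differed by at most 1.24-fold. Past the threshold was 1 gene of 8 in each direction, beside background shares of 4.7% and 4.69%. The 10 genes were chosen with earlier results of these data known, so these counts are a description of Rcan1 and Nfatc1. The median log2 ratio of the 8 genes was 0.03, and that of the genes with status OK was 0.00433. The median of the absolute log2 ratios was 0.18 for both. In order of level in Control, the genes were Rcan1, Nfatc1, Ppp3ca, Nfat5, Ppp3r1, Ppp3cb, Nfatc3, Rcan2, Nfatc4 and Nfatc2. In LIPUS, Ppp3ca stood above Nfatc1 and the order was otherwise the same. Without an error between cultures, whether neighbours in this order differ beyond their spread cannot be stated, and Ppp3cb and Nfatc3 were nearly level in Control.

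**Figure D2:**
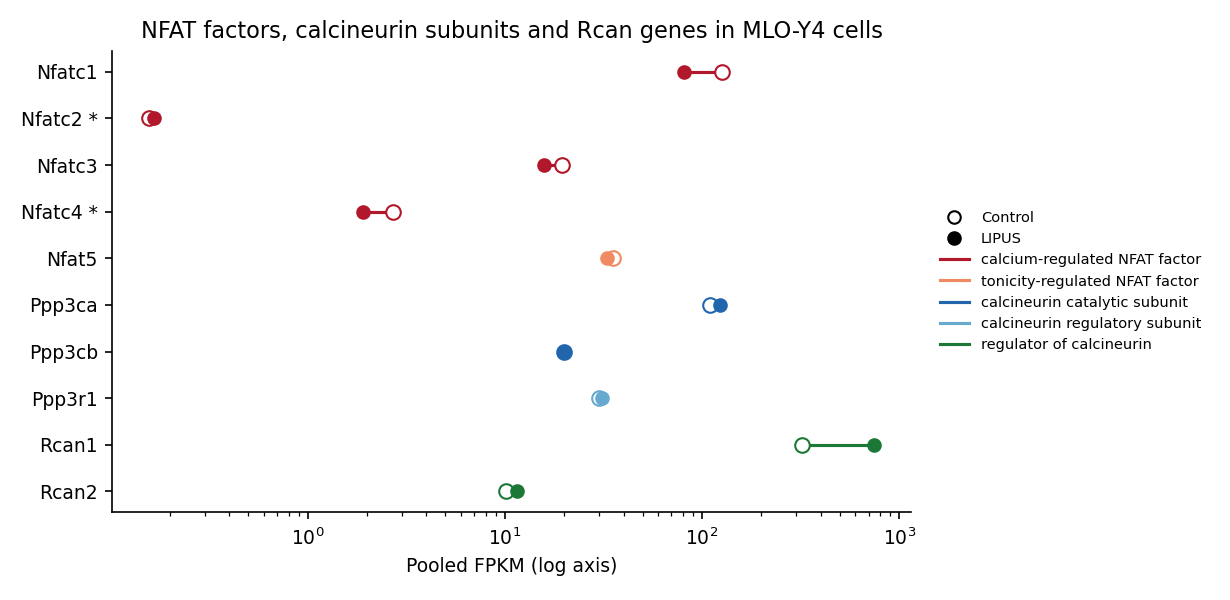
Pooled FPKM of the 10 genes on a log axis, with open circles for Control, filled circles for LIPUS and an asterisk for the 2 genes that the authors' program did not compare; colours give the role of each gene. Rcan1 moves from 321 to 749 FPKM and Nfatc1 from 126 to 80.6 FPKM, while the circles of the calcineurin subunits nearly coincide.

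Rcan1 had the highest level of the 10 genes in both groups. Its pooled FPKM was 321 in the Control group and 749 in the LIPUS group, which is 2.34-fold higher, a log2 ratio of 1.22. By pooled FPKM it was ranked 267 among all genes in Control and 114 in LIPUS. Its log2 ratio was ranked 45 from the top among the 8143 genes, and 0.909% of them differed by as much in either direction. Most genes with a ratio of this size stayed under 100 FPKM in both groups. Of the 1024 genes that reached 100 FPKM in either group, only Dcn, Egr2, Egr3 and Lmcd1 had a higher ratio than Rcan1. In absolute terms Rcan1 was higher by 428 FPKM, and 7 other genes with status OK were higher by as much or more. More cells expressing a gene and more RNA per cell cannot be told apart in such bulk samples.

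Rcan2 encodes a related calcineurin regulator that is prominent in brain and muscle. Its pooled FPKM was 10.2 in Control and 11.5 in LIPUS, a log2 ratio of 0.17. The related gene Rcan3 was not among the 10 genes and had an FPKM of 4.76 in Control and 3.18 in LIPUS, with no comparison by the authors' program. Rcan1 therefore made up 95.5% of the summed FPKM of the Rcan genes in Control and 98.1% in LIPUS. The level of Rcan1 was 31.5 times that of Rcan2 in Control and 65.2 times in LIPUS.

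The annotated gene Gm46555 lies antisense within Rcan1 over 5014 bases and was not analysed here. The nearest genes with status OK on either side of Rcan1 were Smim11, 78.9 kb away, and Runx1, 131 kb away. Smim11 had log2 ratio -0.14 and Runx1, a transcription factor of blood and skeletal development, 0.05. Neither neighbour reached 1.5-fold. Whether strand was used in the counting is not given in the sources used here, so reads from an antisense gene cannot be told apart from those of its partner.

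Nfatc1 was the most abundant NFAT factor in both groups, and the difference was in the opposite direction to Rcan1. Its pooled FPKM was 126 in Control and 80.6 in LIPUS, which is 1.56-fold lower, a log2 ratio of -0.64. It was ranked 312 from the bottom among the 8143 ratios, and 7.76% of the genes differed by as much in either direction. Among genes with a mean FPKM of 100 or more, 1.68% were lower by at least 1.5-fold. The mean of Nfatc1 lies near the lower bound of this class, and in the class of 10 to under 100 FPKM the share was 3.50%. Of the 1024 genes that reached 100 FPKM in either group, 19, Nfatc1 included, had a ratio as low. Nfatc1 would not be counted with a threshold of 2-fold. The gene is on the minus strand of chromosome 18 of GRCm38, from 80606205 to 80713071. Its nearest neighbours with status OK, Atp9b at 21.1 kb and Ctdp1 at 137 kb, had log2 ratios of -0.21 and 0.21. An antisense gene, AC123818.1, overlaps 2571 bases of Nfatc1 and was not analysed here.

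Nfatc3 was the only other calcium-regulated NFAT factor with the status OK. Its pooled FPKM was 19.5 in Control and 15.7 in LIPUS, a log2 ratio of -0.31, and 27.9% of the 8143 genes differed by as much. Nfatc4 was scarce, with 2.73 FPKM in Control and 1.91 in LIPUS, and was not compared by the authors' program. Nfatc2, a factor best known from T lymphocytes, was close to 0, with 0.156 FPKM in Control and 0.166 in LIPUS, also without a comparison. All genes with the status OK reached at least 6.70 FPKM in 1 group, and Nfatc2 and Nfatc4 lay below that level.

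The summed FPKM of Nfatc1 to Nfatc4 was 148 in Control and 98.4 in LIPUS, a log2 ratio of -0.59. Nfatc1 contributed 84.8% of the sum in Control and 81.9% in LIPUS. Nfatc3 contributed 13.2% and 16.0%, and Nfatc4 1.84% and 1.95%. The order of the NFATc factors by level, Nfatc1, Nfatc3, Nfatc4 and Nfatc2, was the same in both groups. Levels of these neighbours in the order differed by several fold, though the spread of each between cultures is not known.

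Nfat5, the tonicity-responsive factor, had a pooled FPKM of 35.5 in Control and 33.1 in LIPUS, a log2 ratio of -0.10. A difference of this size or larger was found in 70.7% of the 8143 genes. The level of Nfatc1 was 3.54 times that of Nfat5 in Control and 2.43 times in LIPUS. Nfat5 exceeded Nfatc3 in both groups.

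The calcineurin subunits were nearly level between the groups. Ppp3ca, the main catalytic subunit in most tissues, had 109 FPKM in Control and 124 in LIPUS, a log2 ratio of 0.18. Ppp3cb, the second catalytic subunit, had 19.9 and 20.0 FPKM, a log2 ratio of 0.0074. Ppp3r1, the regulatory subunit that binds calcium, had 29.9 and 31.2 FPKM, a log2 ratio of 0.06. Differences as large as those of the 3 subunits occurred in 49.6%, 97.7% and 82.2% of the 8143 genes. The third catalytic gene, Ppp3cc, had 10.9 and 10.7 FPKM.

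Ppp3ca made up 78.0% of the summed FPKM of the catalytic subunits in Control and 80.1% in LIPUS. The level of Ppp3r1 was 0.213 times that sum in Control and 0.202 times in LIPUS. Rcan1, in contrast, was at 2.28 times the summed catalytic subunits in Control and 4.84 times in LIPUS. These are ratios of RNA levels, and no protein was measured. Ppp3r1 shares 18269 bases of its locus with Wdr92 on the same strand. Whether their exons overlap was not examined, and fragments from any shared exon could be assigned to either gene. Wdr92 had 8.64 FPKM in Control and 8.80 in LIPUS.

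**Figure D3:**
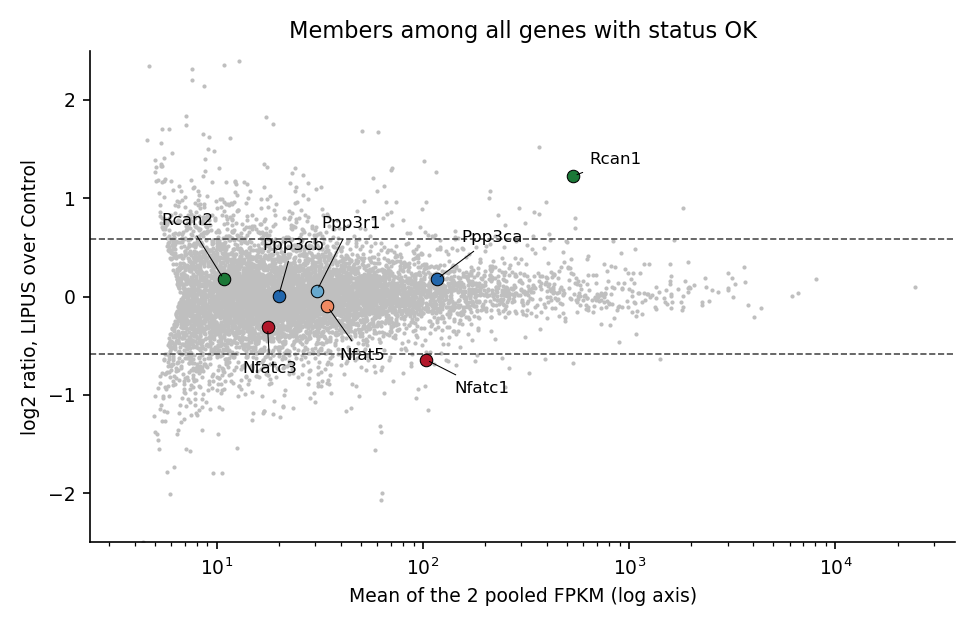
Log2 ratio of LIPUS over Control against the mean of the pooled FPKM on a log axis for the genes with status OK (grey) and the 8 members among them (coloured), with dashed lines at 1.5-fold; 3 grey genes lie beyond the plotted range of 2.5 in either direction. Rcan1 at 1.22 and Nfatc1 at -0.64 lie outside the dashed lines, and the other 6 members lie between -0.31 and 0.18.

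The genes around calcineurin were then examined in lists of upstream and downstream components. Of 58 pathway genes outside the 10, 45 had the status OK, of which 2 were higher and 1 was lower by at least 1.5-fold, with a median log2 ratio of -0.02. These counts are near or below the background shares of 4.7% higher and 4.69% lower, so they are no result about the pathway. At these shares a list of a few genes will mostly hold none past 1.5-fold, so a count of 0 in the short lists that follow is no result either. All 3 calmodulin genes, which encode the calcium sensor, had log2 ratios between -0.11 and 0.43, and the most abundant, Calm2, had 636 FPKM in Control and 742 in LIPUS. None of the 7 genes with status OK for store-operated calcium entry and release reached 1.5-fold, and their median was -0.16. Among them the channel gene Orai2 was the most abundant, at 30.2 FPKM in Control and 29.9 in LIPUS.

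The kinases that drive NFAT out of the nucleus, among them Gsk3b, Dyrk1a and Csnk1a1, and the Homer and Lrrk2 genes that bind or retain NFAT showed small differences. The log2 ratios of their 9 genes with status OK ranged from -0.10 to 0.14. Csnk1a1 had 85.0 FPKM in Control and 84.5 in LIPUS. Anchors, inhibitors and partners of calcineurin-binding drugs had 5 genes with status OK, all within 1.5-fold. Ppia, the cyclophilin bound by cyclosporin, had 1652 FPKM in Control and 1590 in LIPUS. The calcineurin homologue Chp1 had 62.7 and 75.1 FPKM. Among other calcineurin substrates, 1 of 8 was lower by at least 1.5-fold. This was Crtc1, a coactivator of CREB, with 9.74 FPKM in Control and 5.06 in LIPUS. Of all genes with status OK and a mean under 10 FPKM, as for Crtc1, 11.5% were lower by at least 1.5-fold, so this count is no result about the list. Dnm1, the most abundant of that list, had 41.9 and 44.9 FPKM.

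Both pathway genes that were higher by at least 1.5-fold were listed as nuclear partners of NFAT, 2 of 11 with status OK, beside 4.7% of all genes. The list was written with earlier results of these data known, and the count is a description of these 2 genes. Fosb, an AP-1 subunit, had 34.8 FPKM in Control and 80.1 in LIPUS, a log2 ratio of 1.20. Junb, another AP-1 subunit, had 415 and 673 FPKM, a log2 ratio of 0.70. The median of the 11 partners was 0.21. The other AP-1 genes were within 1.5-fold, with log2 ratios of 0.57 for Fos, 0.31 for Jun, 0.26 for Jund, 0.21 for Fosl1 and -0.22 for Fosl2.

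**Figure D4:**
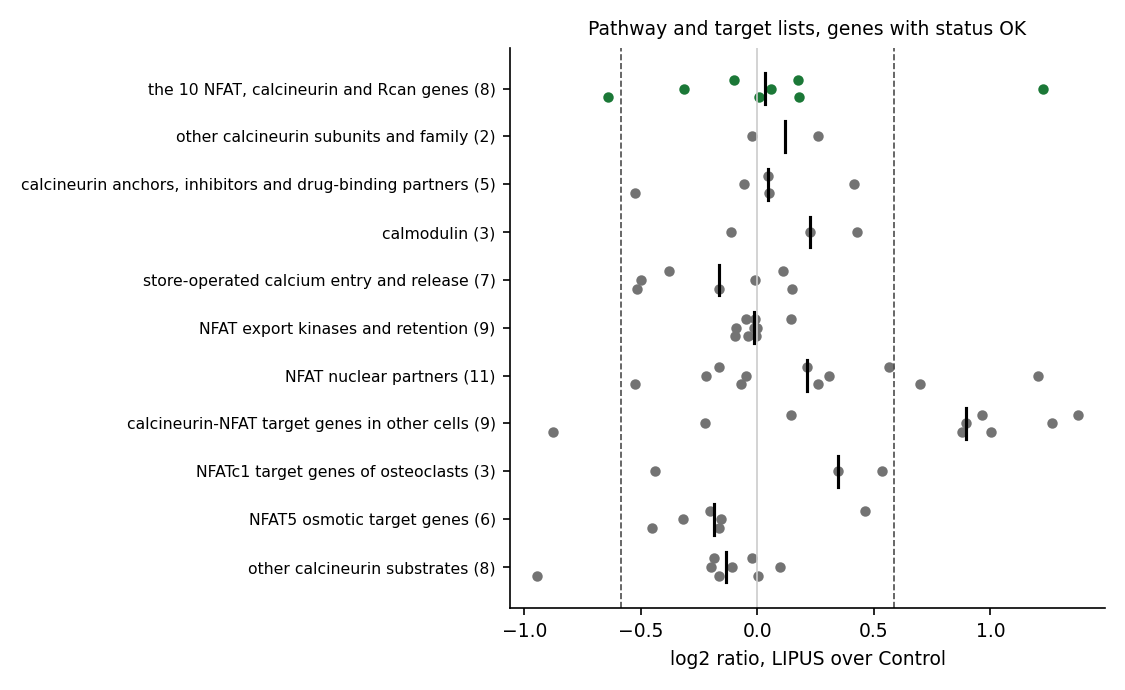
Log2 ratio of LIPUS over Control for the genes with status OK in each list (number of such genes in parentheses), with a bar at the median and dashed lines at 1.5-fold. The export kinases lie within 0.14 of 0. Of the 9 targets known from other cells, 6 lie above 1.5-fold and 1 lies below, beside 4.7% and 4.69% of all genes with status OK. Several of these targets were known to be higher in these data when their list was written, so the count is a description of these genes.

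Genes known as calcineurin and NFAT targets in other cells were mixed. Of 18 such genes, 9 had the status OK and 6 were at 0 in both groups, including Il2, the classical target in T cells. Of the 9 genes, 6 were higher and 1 was lower by at least 1.5-fold, and the median log2 ratio was 0.90, beside background shares of 4.7% higher and 4.69% lower and a median of 0.00433 over all genes with status OK. Egr2 had 56.6 FPKM in Control and 147 in LIPUS, and Egr3 had 67.9 and 163 FPKM. Ptgs2, the inducible cyclooxygenase, had 205 and 381 FPKM, and Nr4a1, an orphan nuclear receptor, 44.8 and 87.5 FPKM. F3, the tissue factor gene, had 9.41 and 18.8 FPKM, and Il6 8.98 and 16.5 FPKM. Ccl2, a chemokine, was the gene that was lower, with 23.7 FPKM in Control and 12.9 in LIPUS. Several of these genes were known to be higher in these data when the list was written, and most of them are also known targets of other pathways. The count is therefore a description of these genes.

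Among the targets of NFATc1 in osteoclasts, 3 of 10 had the status OK and none of these reached 1.5-fold. Ctsk, the osteoclast protease cathepsin K, had 42.2 FPKM in Control and 53.6 in LIPUS. Of the osmotic targets of Nfat5, 6 of 10 had the status OK and none reached 1.5-fold, with a median of -0.19. With 4.7% of all genes higher and 4.69% lower, none past 1.5-fold among 3 or 6 genes is no result about either list. Their most abundant gene, S100a4, had 4306 FPKM in Control and 3735 in LIPUS. The study also listed 10 genes with NFATc1 bound at their promoters in public data. Of these, 5 were at 0 in both groups and 5 were above 0 without a comparison, with the highest level for Wwox, at 6.26 FPKM in Control and 5.41 in LIPUS.

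Markers were used to check the label of the cells. Of 12 genes of the osteocyte and osteoblast lineage, 6 had the status OK, led by Col1a1 with 891 FPKM in Control and 731 in LIPUS. Pdpn, an early osteocyte gene, had 295 and 402 FPKM. The mature osteocyte genes Sost, Mepe and Fgf23 and the Wnt antagonist Dkk1 were at 0 in both groups. Phex and Bglap were at 0 in Control, with 0.190 and 1.58 FPKM in LIPUS and no comparison by the authors' program. Dmp1 had 3.04 FPKM in Control and 7.65 in LIPUS, while Alpl had 293 and 190 FPKM and Runx2 24.4 and 14.8 FPKM. These 3 genes past 1.5-fold, 1 higher and 2 lower, stand beside the same background shares. For genes with status OK and a mean under 10 FPKM, as for Dmp1, the share higher by at least 1.5-fold was 10.9%. All 6 lymphocyte markers were at 0 in both groups. The 7 osteoclast and macrophage markers summed to 0.440 FPKM in Control and 1.39 in LIPUS, with Dcstamp, Oscar, Calcr and Adgre1 at 0. Most of that sum in LIPUS was Acp5, at 0.204 FPKM in Control and 1.10 in LIPUS. The most abundant of these markers in Control was Csf1r, at 0.236 FPKM in Control and 0.233 in LIPUS. Muscle markers were at 0 except Acta1, at 1.97 and 5.62 FPKM. Other genes that osteoclasts express were well above 0, namely Ctsk, given above, Itgb3, at 9.41 FPKM in Control and 6.94 in LIPUS, and Clcn7, at 7.72 and 11.2 FPKM.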

How the data were processed

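RNA from 3 LIPUS-treated and 3 control cultures of MLO-Y4 cells was sequenced from stranded mRNA libraries as paired-end reads. Per the labels, reads were trimmed with Trimmomatic 0.36 and aligned to GRCm38 with TopHat2 2.1.0 and Bowtie2 2.2.6.0. The authors deposited 1 FPKM per gene and group, computed with Cufflinks, whose version is 2.1.1 in the processing notes and another in the methods, and laid out as a Cuffdiff table. Its fold changes, test statistics, p-values and q-values are the authors' own comparison and were not used. The status column was used only to tell compared genes from others.

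Ratios of LIPUS over Control were computed without a pseudocount, and 1.5-fold was the size counted as a difference. The members and the gene lists were chosen with earlier results of these data known. The text names all 10 genes, and from each list the genes with status OK past 1.5-fold and the most abundant in Control. Other genes named for their role, or as relatives, neighbours and genes above Rcan1, were chosen after their values were seen. Gene positions came from GENCODE M21 by Ensembl identifier, on the same build, and promoter sequences from RefSeq (GRCm38.p6), of which the 250 bases before each start were searched. The ratio step was tested on simulated data with 200 genes changed by a known fold. This checks the arithmetic only, because the spread between the real cultures is not known. Python 3.11.15, numpy 2.4.6, pandas 2.3.3 and matplotlib 3.10.9 were used. Alternatives were pseudocounts of 0.1 and 1, centring, upper-quartile scaling, members of any status, a minimum of 10 FPKM, and a smaller threshold and one of 2-fold.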

Additional observations from a re-analysis of the deposited data

How the results depend on the processing

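The 1 gene higher (Rcan1) and the 1 gene lower (Nfatc1) by at least 1.5-fold were counted as such with pseudocounts of 0.1 and 1, after centring on the median, after scaling by the upper quartile, with members of any status and with a minimum of 10 FPKM. Several of these settings could not change the counts. The minimum of 10 FPKM removed no member with status OK, the lowest being Rcan2 at 11.5 FPKM in LIPUS. Nfatc2 and Nfatc4, added when status was ignored, differed by 1.06-fold and 1.42-fold. The pseudocounts are small beside the levels of Rcan1 and Nfatc1. With a smaller threshold, just above the 1.24-fold of Nfatc3, the counts were also 1 and 1. With a threshold of 2-fold, 0 genes were lower and 1 was higher. Under the pseudocounts and scalings the log2 ratio ranged from 1.22 to 1.23 for Rcan1 and from -0.64 to -0.63 for Nfatc1. A pseudocount of 1 moved the log2 ratio of Nfatc4 from -0.51 to -0.35. Of the 62 alternative values, 60 moved by less than 0.1 on the log2 scale or kept their count. For the settings that could not change the counts, this was fixed in advance. No paired analysis was possible because the table holds pooled values only, and for the same reason no replicate could be left out. Every difference therefore lacks an error between cultures, and the low levels of Nfatc2 and Nfatc4 limit what can be read from them.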

Other observations

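Among pathway and target genes without a comparison by the authors' program, chosen after their values were seen, Orai1, the pore subunit of the store-operated calcium channel, had 1.98 FPKM in Control and 3.94 in LIPUS. Tnfsf11, which encodes RANKL, had 2.23 and 4.19 FPKM, and Tfeb, a lysosomal transcription factor dephosphorylated by calcineurin, 6.01 and 3.73 FPKM. All 3 lay below the lowest level at which genes were compared, 6.70 FPKM, and whether they differ beyond the spread between cultures was not tested.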
